A study of Mus musculus with 30 samples.

Results

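Wild-type C57BL/6 mice of 12 to 16 weeks received lipopolysaccharide (LPS) at 2 mg/kg into the peritoneal cavity, or an equal volume of phosphate-buffered saline, and peritoneal macrophages were taken 6 h later. The labels call these groups WT+LPS and WT-LPS, and each holds 6 mice. These 12 of the 30 samples of the series were selected by their titles, and the WT-LPS cells are called resting here. Neither group carries an altered allele. The other 18 samples come from LPS-treated mice with exchanged cyclooxygenase genes. They are used only for the values set side by side at the end of the results and for an alternative fit with all 5 groups. RNA was measured on an nCounter inflammation panel, which counts colour-coded probes bound to single RNA molecules, and each value is the authors' deposited signal for 1 gene in 1 sample. Of 248 target genes, 194 had a signal above 20 in at least 6 of the 12 samples and were tested.

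The labels limit what the cells can stand for. Their extraction protocol describes all samples as macrophages elicited by LPS, which the saline group did not receive, and the sources used here do not give how the cells were purified. All 9 macrophage markers of the panel (C1qa, C1qb, Mrc1, Cd163, C3ar1, Trem2, Tyrobp, Itgb2 and Alox15) had a mean above 20 in both groups. Their summed signal was 119849 to 163768 in resting cells and 37360 to 67861 after LPS. Signals of T cell, B cell and neutrophil markers were also present, and they are given beside the receptors. The samples are whole cell preparations, so fewer cells of a type and less RNA per cell cannot be told apart.

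LPS, a lipid of the outer membrane of gram-negative bacteria, is sensed by Tlr4 with its partner Ly96. The adaptor Myd88 leads from there to the kinase Map3k7 and on to the mitogen-activated protein (MAP) kinases and NF-kB, while a second adaptor route induces interferon genes. MAP kinases act in tiers, in which a MAP3 kinase activates a MAP2 kinase and this one activates ERK, JNK or p38. Macrophages also make lipid mediators from arachidonic acid. Cyclooxygenases give prostaglandins and thromboxane, lipoxygenases give leukotrienes and hydroxy fatty acids, and most of these products act on receptors coupled to G proteins.

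Total signal per sample was 471534 to 529612 in WT-LPS and 620696 to 766533 in WT+LPS. Underlying counts, estimated from the step size of low signals, were 298381 to 717120 per sample, with a median of 407595.5 in WT-LPS and 643034.5 in WT+LPS, and the part of depth in the results was not tested. The samples were measured in 3 runs with 2 lanes of each group in every run, always at the same lane positions, so lane position and treatment cannot be told apart. The authors' signal holds the geometric mean of the reference genes Cltc and Gapdh equal in all lanes. In limma's test with a Benjamini-Hochberg adjusted p under 0.05, 170 of the 194 genes changed (87.6%), 99 of them higher (51.0%) and 71 lower (36.6%) after LPS. In 141 genes (72.7%) the ranges of the 2 groups did not overlap. Under 5 other scalings the median log2 change, 0.42 as deposited, moved by -0.91 to 0.51, and 69 genes (35.6%) stayed higher and 49 (25.3%) stayed lower in each of them. A call that held under all 5 is called stable below. Of the higher genes 28 were above 20 in most samples of WT+LPS only, and 7 lower genes in most of WT-LPS only. The filter admitted these mainly through the group where they are high, which largely set their direction. Changes given below as at least a fold belong to such genes. Among the 159 genes above 20 in most samples of both groups 71 were higher and 64 lower, with 43 and 44 stable. Changes are differences of the mean log2(signal + 1), WT+LPS minus WT-LPS, with their SE, and n is 6 per group throughout. Signal levels are given as the median of the 6 samples with the lowest and the highest in brackets.

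The cyclooxygenases opened the lipid group, because their promoters can be set side by side with opposite changes. Ptgs1 makes prostanoids in unstimulated cells, and Ptgs2 is the inducible form. Their promoter sequences follow, from 250 bases before to 50 after the gene start (RefSeq, GRCm38.p6), at chr2:36230176-36230475 and chr1:150099781-150100080, both on the plus strand and written 5′ to 3′. They were searched on both strands for the NF-kB consensus, the interferon-stimulated response element (ISRE: GAAA, 2 bases of any kind, GAAA), AP-1 (TGANTCA), the cyclic AMP response element (CRE: TGACGTCA) and a TATA box (TATAAA), none of which contains another. Neither sequence held a match, so no base is in capitals.
Ptgs1: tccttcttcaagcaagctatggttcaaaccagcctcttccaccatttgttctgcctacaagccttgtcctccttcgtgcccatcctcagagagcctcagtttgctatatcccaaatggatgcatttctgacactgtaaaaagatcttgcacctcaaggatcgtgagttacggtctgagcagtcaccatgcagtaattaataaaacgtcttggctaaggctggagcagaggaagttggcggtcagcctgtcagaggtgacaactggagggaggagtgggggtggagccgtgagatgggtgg
Ptgs2: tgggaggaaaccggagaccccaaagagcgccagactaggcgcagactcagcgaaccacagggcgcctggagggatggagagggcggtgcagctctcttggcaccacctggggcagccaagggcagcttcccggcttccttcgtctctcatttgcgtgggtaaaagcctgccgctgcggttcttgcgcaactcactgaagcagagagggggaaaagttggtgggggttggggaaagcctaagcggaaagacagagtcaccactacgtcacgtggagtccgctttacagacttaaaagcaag
Among all 27025 RefSeq promoters of this length, 4.35% held the NF-kB consensus, 3.49% the ISRE, 7.93% AP-1, 1.88% the CRE and 14.2% the TATA box. A missing match says only that these letters are not in this window.

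Ptgs1 signal was 2580.1 (2096 to 3062) in resting cells and 242 (157 to 347) after LPS, a change of -3.52 ± 0.19. Ptgs2 signal was 2.23 (1 to 30.7) in resting cells and 4664 (3719 to 7007) after LPS, at least 224-fold higher. The groups did not overlap in either gene. Pla2g4a, the cytosolic phospholipase that frees arachidonic acid from membranes, rose with Ptgs2, from 287 (221 to 320.3) to 1222 (914 to 1570.3), a change of 2.14 ± 0.14. Both measured lipoxygenases fell. Alox5, which starts leukotriene synthesis, went from 1370.1 (891 to 1387) to 194 (132 to 283), a change of -2.68 ± 0.18, and Alox15, the 12/15-lipoxygenase of resident peritoneal macrophages, had a log2 change of -3.05 ± 0.21. All 5 enzymes tested had groups that did not overlap, and all 5 calls, 2 higher and 3 lower, were stable (adjusted p between 9.7e-10 and 1.2e-08). Over all genes tested 72.7% had groups free of overlap and 60.8% had a stable call. The list's median change was -2.68, against 0.42 over all genes tested. Alox12, the platelet-type lipoxygenase, was not tested, with a signal of 1 to 1.58 in all 12 samples.

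Of 11 receptors for lipid mediators 8 were tested, and 6 were lower, 1 was higher and 1 did not pass, with a median change of -1.31. Of these calls 5 lower and 1 higher were stable. Stable falls made up 25.3% of all genes tested, and all called falls 36.6%. Tbxa2r, the thromboxane receptor, had the largest fall on the log2(signal + 1) scale, from 68.9 (40.1 to 86.1) to 1.08 (1 to 7.25). All its LPS samples were under 20, so the fall is given as at least 3.19-fold and its rank is not firm. Cysltr1, the main receptor for leukotriene D4, fell from 649 (617 to 739) to 104 (91.01 to 159.8), a change of -2.56 ± 0.14. Neither gene had any overlap between the groups.

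The receptors for prostaglandin E2 moved in both directions. Ptger2, which raises cyclic AMP, fell from 144 (136 to 192) to 30.5 (21.1 to 40.2), a change of -2.34 ± 0.17. Ptger4, which also raises cyclic AMP, went from 399 (289 to 533) to 260.2 (222 to 308), a change of -0.63 ± 0.14, with groups that overlapped and a call lost under 2 of the 5 scalings. Ptger3, which lowers cyclic AMP, was the one lipid receptor that rose, from 22.8 (9.28 to 40.3) to 64.1 (52.7 to 105), at least 2.72-fold, at signals that stayed close to the level of 20. The prostacyclin receptor Ptgir fell by 0.93 ± 0.16 and the leukotriene B4 receptor Ltb4r1 by 1.69 ± 0.13 on the log2 scale. Cysltr2, the second cysteinyl leukotriene receptor, had 57.03 (41.5 to 73.5) in resting cells and 42.7 (33.9 to 67.2) after LPS, and its change of -0.40 ± 0.18 (95% interval -0.80 to 0.00) did not pass (adjusted p = 0.059). It passed as lower under equal total signal, 6 reference genes and equal medians, in run 3 alone, and without WT+LPS sample 52 or WT-LPS sample 37, and its change lay between -1.30 and 0.11 over the scalings. Ptger1, Ptgfr and Ltb4r2 were under 20 in every sample. Of the 9 macrophage markers 7 fell along with these receptors and with the receptors and kinases that fell below, as their summed signals show, and their part in these falls was not tested.

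**Figure D1:**
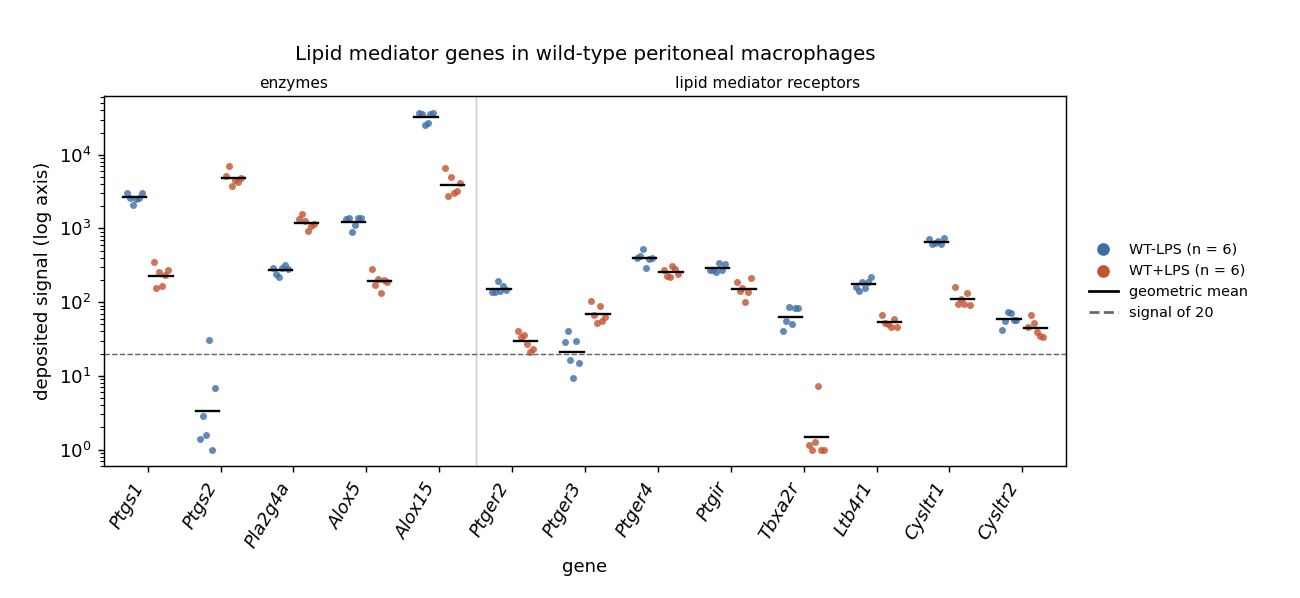
Deposited signal (log axis) of the tested lipid enzymes and lipid mediator receptors in each of the 6 WT-LPS and 6 WT+LPS samples, with the geometric mean as a line and the level of 20 dashed. Ptgs2, Pla2g4a and Ptger3 are the genes whose LPS samples lie higher, and Tbxa2r is the receptor whose LPS samples all lie under 20.

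Chemokine receptors guide leukocytes along gradients of chemokines. Of 8 on the panel 5 were tested, 2 higher and 3 lower, with a median change of -1.13. Ccr2, the receptor by which monocytes follow Ccl2, fell from 3334 (2452 to 3908) to 133 (72.96 to 169), a change of -4.67 ± 0.20. Ccr1, a receptor for Ccl3 and Ccl5, fell from 2368 (2149 to 2466) to 1145 (588 to 1775), a change of -1.13 ± 0.21, and the 6 LPS samples were spread wider than the resting ones. Cxcr4, the receptor of Cxcl12, had a change of -1.17 ± 0.30, with 1226 (748 to 2444) in resting cells and 609 (424 to 807) after LPS, so that the highest LPS sample lay above the lowest resting one. These 3 falls were stable. Of all genes tested, 36.6% were lower and 25.3% had a stable fall.

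Cxcr2, a receptor for neutrophil-attracting chemokines that is typical of neutrophils, rose from 1.3 (1 to 2.37) to 43.8 (31.8 to 60.8), at least 2.23-fold and stable. Cxcr1 was under 20 in all samples, and the summed signal of the 3 neutrophil markers (Cxcr1, Cxcr2 and Mmp9) was 63.7 to 229 in resting cells and 71.3 to 121 after LPS. Mmp9 fell, from 104 (58.4 to 226) to 39.9 (29.8 to 50.6), so the sum joins members that moved opposite ways. The part of neutrophils in the Cxcr2 signal was not tested. Ccr7, which leads dendritic cells and lymphocytes to lymph nodes, went from 1601 (999 to 2129) to 2372 (1661 to 3339), a change of 0.64 ± 0.21, an overlapping pair of groups whose direction turned to -0.28 when all samples were given equal medians. The summed signal of the 4 B cell markers (Ltb, Lta, Cd40 and Hsh2d) was 4842 to 6139 in resting cells and 3475 to 4906 after LPS, and within it Ltb fell, from 3963 (3608 to 4878) to 318 (180.3 to 479), while Cd40 rose, from 870.3 (789 to 1034) to 3456 (2796 to 3728). The 6 T cell and NK cell markers summed to 241 to 433 and to 482 to 1246, with the means of Il2 and Ccr4 under 20 in both groups. Ifng carried the rise of this sum, from 1.41 (1 to 13.7) to 577 (409.9 to 1152), while Cd4 fell from 278 (183 to 326) to 41.5 (30.4 to 85.99) and Cd40lg fell as well. The part of these cells in the Ccr7 signal was not tested.

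Of 9 receptors for cytokines and growth factors 7 were tested, 4 higher and 3 lower, and 3 calls in each direction were stable. The shares over all genes tested were 51.0% higher and 36.6% lower, with 35.6% and 25.3% stable. Il18rap, the accessory chain of the interleukin-18 receptor, rose from 52.6 (40.7 to 62.99) to 239 (215 to 367), a change of 2.34 ± 0.16. Il1r1, the signalling receptor of interleukin-1, rose from 21.4 (13.7 to 53.5) to 113 (46.02 to 145), at least 3.999-fold. A single resting sample, number 40, reached the range of the LPS samples. Flt1, a receptor for vascular endothelial growth factor, rose from 3.98 (1 to 5.29) to 46.8 (39.96 to 55.2), at least 2.38-fold. Flt1 also served as a marker of mesothelial and stromal cells, of which the other 4 (Twist2, Areg, Il11 and Mmp3) had means under 20 in both groups.

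Il6ra, the binding chain of the interleukin-6 receptor, fell from 1999 (1478 to 2341) to 573 (455 to 713), a change of -1.79 ± 0.14. Il10rb, a chain shared by the receptors of interleukin-10 and interleukin-22, fell from 3518 (2636 to 4191) to 1658 (1556 to 1794), a change of -1.04 ± 0.12. Tgfbr1, the kinase chain of the receptor for TGF-beta, fell from 816 (710.1 to 944) to 406 (372 to 502), a change of -0.99 ± 0.11. In none of the 3 did the groups overlap. Il1rap, the accessory chain through which Il1r1 signals, went from 339 (303 to 405) to 459.5 (422 to 628), a change of 0.48 ± 0.12, and it was called lower, at -0.44, under equal medians. The interleukin-23 receptor Il23r was above 20 only in LPS samples, but in fewer than 6 of them, with 7.83 (1.39 to 9.27) and 37.9 (16.8 to 59.8), and was not tested.

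**Figure D2:**
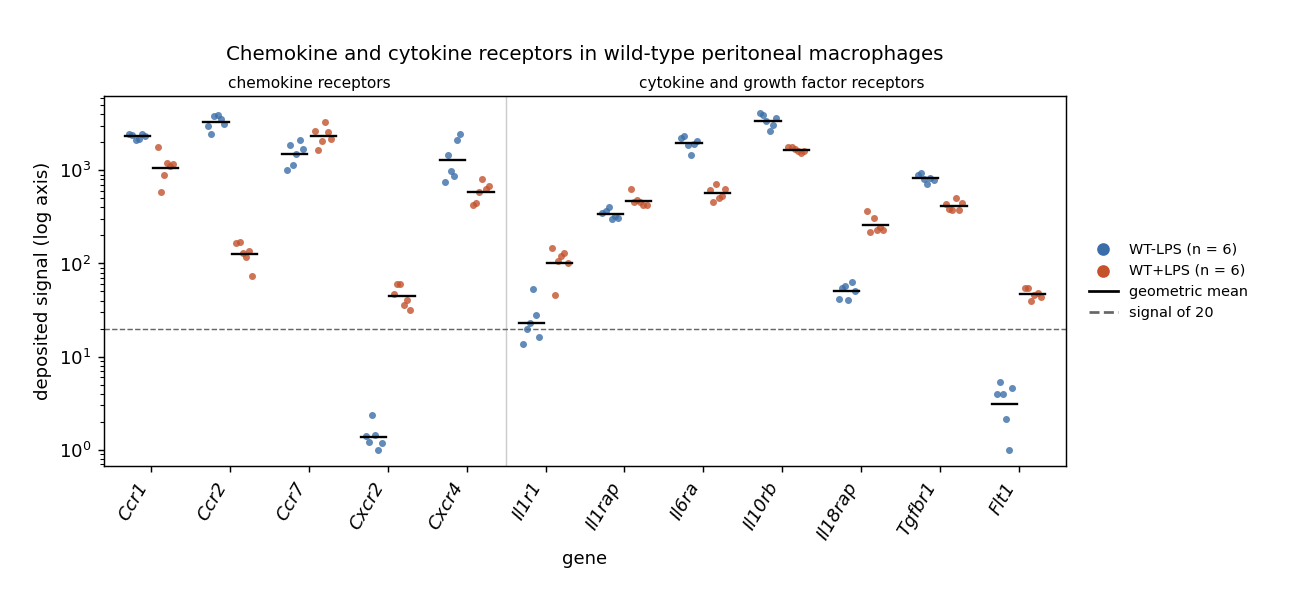
Deposited signal (log axis) of the tested chemokine receptors and cytokine and growth factor receptors in each sample, with geometric means as lines and the level of 20 dashed. Ccr2 shows the widest gap among the falling receptors, while Cxcr2, Il1r1, Il18rap and Flt1 lie higher after LPS.

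Pattern recognition receptors detect microbial molecules. Of 17 receptors and adaptors 15 were tested, 8 higher, 3 lower and 4 not past the test, and 4 higher and 1 lower were stable. All genes tested had 51.0% higher and 36.6% lower, with 35.6% and 25.3% stable. Tlr3, the endosomal sensor of double-stranded RNA, had the largest rise on the log2(signal + 1) scale. All its resting signals were under 20, so this rank is not firm. Its promoter at chr8:45410331-45410630 (minus strand, RefSeq, GRCm38.p6, the same window) is shown because it holds a match to the NF-kB consensus, in capitals, at -211 to -202 from the gene start, which is a match of letters and not a site.
Tlr3: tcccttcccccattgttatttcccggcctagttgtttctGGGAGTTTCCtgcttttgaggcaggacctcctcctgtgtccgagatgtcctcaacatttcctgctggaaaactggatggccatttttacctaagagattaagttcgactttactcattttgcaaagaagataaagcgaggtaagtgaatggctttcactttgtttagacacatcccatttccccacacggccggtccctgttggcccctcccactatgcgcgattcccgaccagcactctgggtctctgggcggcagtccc
Of the promoters of tested genes that were higher after LPS, 13 of 73 (17.8%) held this consensus, against 2 of 54 (3.70%) of the lower genes and 3 of 17 (17.6%) of those that did not pass. The ISRE was found in 7 of 73, 0 of 54 and 1 of 17, in the same order. These shares describe the genes with a promoter in the RefSeq table.

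Tlr3 signal was 1.51 (1.18 to 8.91) in resting cells and 165 (84.7 to 237) after LPS, at least 7.93-fold higher. Nlrp3, the sensor of an inflammasome, rose from 308 (166 to 363) to 2869.8 (2049 to 3915), a change of 3.36 ± 0.21, and the adaptor Myd88 had a change of 1.87 ± 0.12. Tlr8, a sensor of single-stranded RNA, fell from 1229 (1175 to 1309) to 623 (331 to 989.9), a change of -1.05 ± 0.21. Tlr4, the LPS receptor itself, went from 1172 (967 to 1433) to 848 (704 to 897), a change of -0.52 ± 0.11 that 3 of 5 scalings kept as lower. Its partner Ly96 was at 908 (788 to 1224) and 932 (818 to 1108), with a change of 0.00 as printed to 2 decimals and a 95% interval of -0.29 to 0.28.

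Of 7 phagocytic, complement and adhesion receptors 5 were lower, all stable, and 2 (Mrc1 and Cd163) did not pass. Over all genes tested 36.6% were lower, and 25.3% had a stable fall. Cd55, which protects cells from complement, fell from 3502 (2826 to 5139) to 509 (379 to 536), a change of -2.90 ± 0.15. C3ar1, the receptor for the complement fragment C3a, fell from 4657 (4429 to 6014) to 1229 (851 to 2294), a change of -1.94 ± 0.20. Trem2, a lipid-sensing receptor of tissue macrophages, fell from 272 (116 to 311) to 49.5 (29.5 to 81.6), a change of -2.16 ± 0.28, and the groups did not overlap in any of the 3. All genes named in this paragraph except Cd55 also count among the macrophage markers, so this list and the marker list are not separate.

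The MAP kinase cascade moved mostly downward, tier by tier with exceptions. Of 16 kinases on the panel 14 were tested, 8 lower, 4 higher and 2 not past the test, with a median change of -0.74. Of the 8 lower 7 were stable, and of the 4 higher none was. Over all genes tested 36.6% were lower and 51.0% higher, with 25.3% and 35.6% stable. The lower genes spanned all tiers. Map2k6, the MAP2 kinase that activates p38, showed the largest change of any kinase, and its promoter at chr11:110398852-110399151 (plus strand, RefSeq, GRCm38.p6) is shown with a match to AP-1 in capitals at -232 to -226 from the gene start.
Map2k6: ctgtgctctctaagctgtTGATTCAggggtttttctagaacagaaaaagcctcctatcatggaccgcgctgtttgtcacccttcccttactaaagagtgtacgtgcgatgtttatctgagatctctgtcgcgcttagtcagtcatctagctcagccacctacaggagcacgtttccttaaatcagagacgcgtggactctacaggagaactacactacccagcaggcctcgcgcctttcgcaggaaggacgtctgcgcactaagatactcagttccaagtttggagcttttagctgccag
AP-1 letters were found in 12.3% of the promoters of higher genes, 5.56% of those of lower genes and 11.8% of those not past the test, against the 7.93% of all promoters given above.

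In the upper tier, Map3k1, which feeds the JNK and ERK branches, fell from 2529.6 (1876 to 3073) to 623 (521 to 855), a change of -1.97 ± 0.15. Map3k5, a kinase activated by oxidative stress, fell from 1942 (1527 to 2256) to 753 (473 to 1497), a change of -1.21 ± 0.23, with the highest LPS sample just below the lowest resting one. Map3k7, which carries the Tlr4 signal, was at 1243 (1124 to 1453) and 1266 (1039 to 1417), with a change of -0.02 ± 0.10 (95% interval -0.24 to 0.21).

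In the middle tier, Map2k6 signal was 129 (104 to 187) in resting cells and 2.695 (1 to 9.27) after LPS, at least 6.59-fold lower, so every LPS sample was under 20. Map2k1, the kinase above ERK, went the other way, from 2283 (1951 to 2327) to 4088 (3848 to 4472), a change of 0.89 ± 0.08, with no overlap. Its call held under 4 of 5 scalings, and under equal medians the change was -0.03. Map2k4, which activates JNK and p38, had a change of 0.30 ± 0.13 (adjusted p = 0.042). It lost the call in 7 of the 12 fits without 1 sample (adjusted p 0.026 to 0.091) and was called lower under equal medians.

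In the lower tier, Mapk3, which is ERK1, fell from 1001 (787 to 1174) to 176 (152 to 248), a change of -2.41 ± 0.14. Mapk14, the alpha form of p38, fell from 1797 (1468 to 2219) to 372 (297 to 458), a change of -2.27 ± 0.13. Mapk8, which is JNK1, rose from 442 (349 to 479) to 649 (631 to 762), a change of 0.65 ± 0.10, and Mapkapk2, a kinase activated by p38 that stabilises cytokine transcripts, from 1907 (1583 to 2028) to 2814 (2458 to 3449), a change of 0.59 ± 0.11. Both rises became falls under equal medians, at -0.27 and -0.33. Of the other kinases that act below ERK and p38, Rps6ka5, a histone kinase, fell from 288 (267 to 382) to 55.9 (45.9 to 123), a change of -2.21 ± 0.22, and Mknk1, which acts on a translation factor, from 669 (486 to 689.9) to 241 (209 to 314), a change of -1.38 ± 0.13. Map3k9 and Mapkapk5 were under 20 in every sample.

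Of 8 other kinases 7 were tested, 2 higher and 5 lower, with a median change of -0.80 and 4 stable falls. Falls were called in 36.6% of all genes tested and were stable in 25.3%. Prkca and Prkcb, protein kinases C that respond to calcium and diacylglycerol, changed by -1.45 ± 0.17 and -1.46 ± 0.17. Limk1, which inactivates the actin-severing protein cofilin, fell from 559 (445 to 623) to 234 (201 to 265), a change of -1.24 ± 0.11, and Rock2, a kinase under Rhoa, from 507 (383 to 569.5) to 296 (259.6 to 372), a change of -0.70 ± 0.12. Ripk1, a kinase of cell death signalling, fell from 624 (586 to 764) to 379 (309.9 to 419), a change of -0.80 ± 0.10. Ripk2, the kinase that carries signals of Nod1 and Nod2, went from 413 (352 to 469.7) to 852 (603 to 1029.8), a change of 0.98 ± 0.13, and Ptk2, the focal adhesion kinase, from 463 (428 to 538) to 645 (573 to 689), a change of 0.46 ± 0.09. The groups of all 7 were free of overlap, against 72.7% of all genes tested. The call for Ripk2 held under 4 of 5 scalings, and Ptk2 was called lower under equal medians, at -0.46.

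G proteins pass signals from receptors, and small GTPases act on the cytoskeleton. Of 10 on the panel, with exchange factors and effectors included, 9 were tested, 7 lower, 1 higher and 1 not past the test, with a median change of -0.72. Over all genes tested 36.6% were lower, and 25.3% had a stable fall. The 2 of 9 with a stable fall here are near that share. The 2 stable falls were those of Rac1, from 6433 (6035 to 7080.2) to 3439 (3076 to 3739.9), a change of -0.93 ± 0.09, and Rhoa, from 10232 (9464 to 11403) to 5693 (5114 to 6139), a change of -0.86 ± 0.09, both of which drive actin remodelling. Cdc42, a GTPase of filopodia and cell polarity, had a change of -0.30 ± 0.09 that turned to 0.22 under 4 reference genes. Among the heterotrimeric subunits Gnaq, which activates phospholipase C, went from 1324 (1172 to 1457) to 791 (665 to 946), a change of -0.72 ± 0.10, Gnas, which activates adenylyl cyclase, changed by -0.53 ± 0.10, and Gnb1 was at 6136 (5628 to 6799) and 6418 (6227 to 7169), a change of 0.08 ± 0.08 (95% interval -0.10 to 0.26). Plcb1, the phospholipase C below Gnaq, changed by -0.87 ± 0.20. Rapgef2, an exchange factor for Rap GTPases, was the one gene of the list to rise, from 737 (675 to 1105) to 1538 (1325 to 2126), a change of 0.98 ± 0.15, a call that held under 4 of 5 scalings. Hras1 was close to the level of 20 in resting cells and mostly under it after LPS, and Gngt1 was under 20 throughout.

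**Figure D3:**
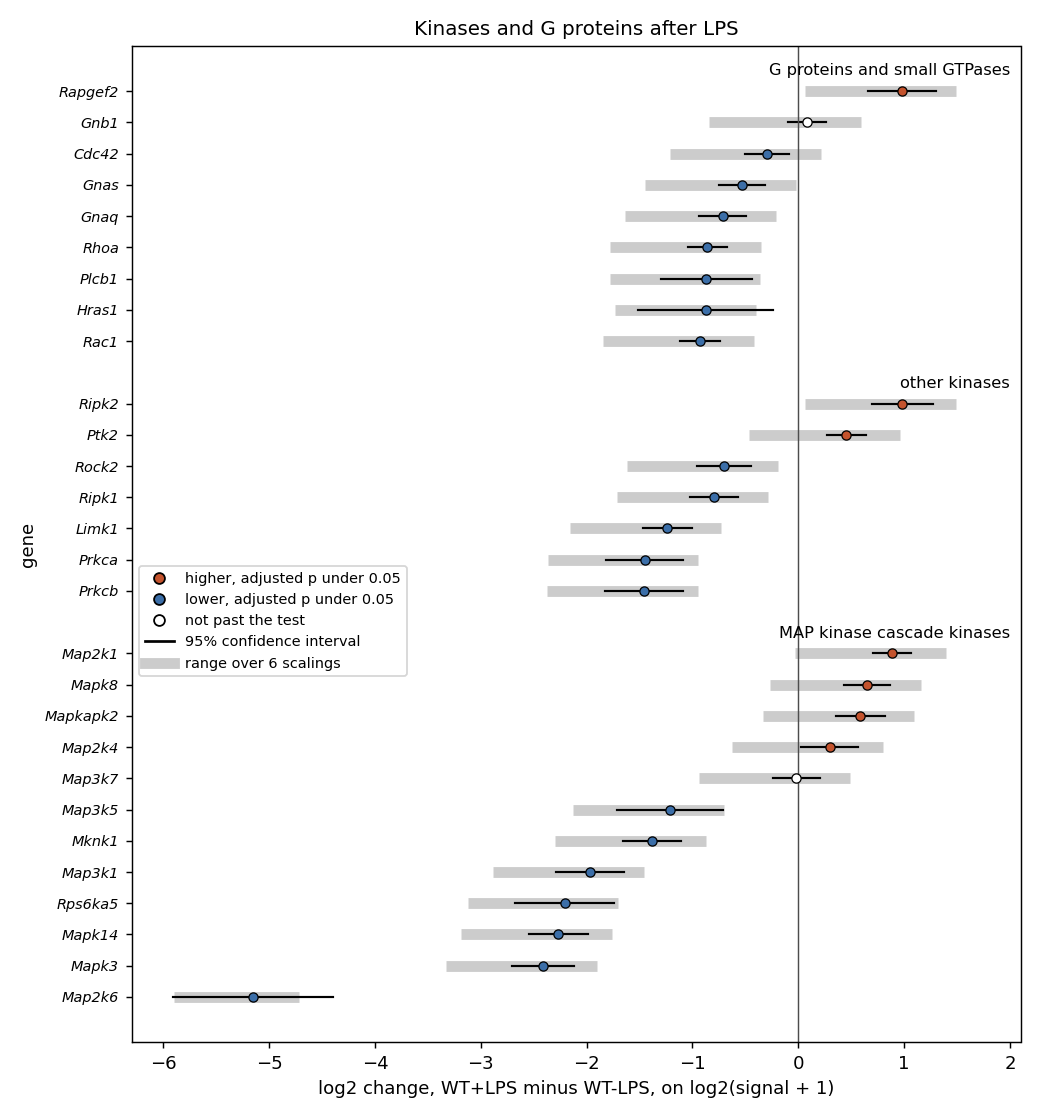
Change after LPS of kinases and G proteins named in the text on the log2(signal + 1) scale, with points for the fitted change, thin bars for its 95% interval and grey bands for the range over the deposited and the 5 other scalings. The grey bands of the 7 stable MAP kinase falls stay left of 0, and those of the rising kinases Map2k1, Mapk8, Mapkapk2 and Ptk2 reach 0 or cross it.

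Ratios of 2 genes within a sample do not depend on the scaling. A set of 14 pairs of related genes was chosen after their values were seen, so the ratios are given as a description with no test. Probes can differ in yield, so a ratio is read only as it moves between groups. The log2 ratio of Mapk14 to Mapk8 went from 2.10 (1.88 to 2.24) to -0.78 (-1.25 to -0.64). That of Mapk14 to Mapkapk2, an enzyme and its target kinase, went from -0.03 (-0.47 to 0.33) to -2.89 (-3.54 to -2.57). Both pairs moved away from Mapk14, by -2.92 and -2.86 in the mean, with no overlap.

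The receptors and upstream kinases shifted in balance as well. The log2 ratio of Ccr2 to Ccr1 moved from 0.47 (0.04 to 0.85) to -3.18 (-4.02 to -1.80), the largest difference of the 14 pairs in the mean (-3.56). The ratio of Il6ra to Il1rap moved from 2.61 (2.23 to 2.76) to 0.22 (-0.03 to 0.58), and that of Cysltr1 to Cysltr2 from 3.46 (3.10 to 4.12) to 1.35 (0.51 to 1.95). Map3k1 to Map3k7 went from 1.03 (0.74 to 1.13) to -0.96 (-1.28 to -0.66), and Ripk1 to Ripk2 from 0.62 (0.32 to 0.97) to -1.21 (-1.50 to -0.61). No share over other gene pairs was taken, and in 11 of these 14 chosen pairs the groups did not overlap. Prkca to Prkcb, 1 of the 3 that did, was -3.09 (-3.19 to -2.89) in resting cells and -3.10 (-3.39 to -2.64) after LPS, a mean difference of 0.00, although both genes fell. Alox15 to Alox5 was 4.72 (4.60 to 4.81) and 4.50 (3.98 to 4.63).

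**Figure D4:**
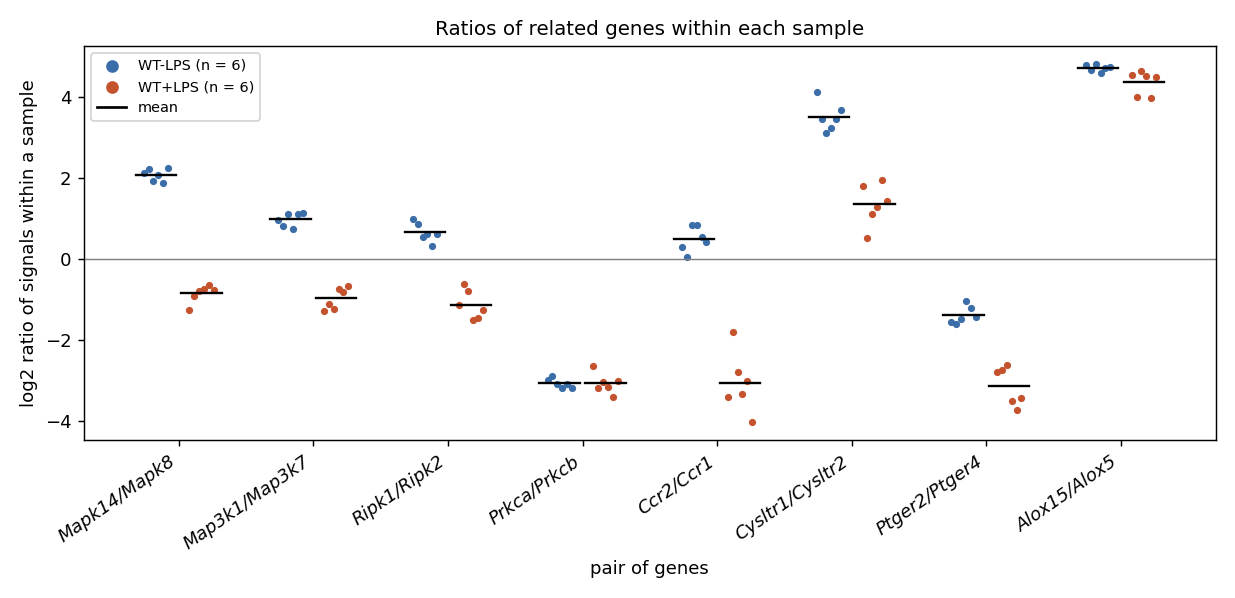
Log2 ratio of the signals of related genes within each sample for 6 WT-LPS and 6 WT+LPS samples, with means as lines. Mapk14/Mapk8 and Map3k1/Map3k7 change sign between the groups, and Prkca/Prkcb keeps the same mean of -3.07.

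The size of the change was then set against the resting signal. When the tested genes were split evenly into 3 groups by resting mean, the lowest group (1.3 to 149, 65 genes) held 47 higher and 12 lower genes, and the median size of the change was 3.53 on the log2 scale. In the middle group (154 to 1058, 64 genes) 34 were higher and 20 lower, with a median size of 0.98. In the highest group (1075 to 54246, 65 genes) 18 were higher and 39 lower, with a median size of 1.10. The resting mean is itself part of the change. In the low group 28 genes were above 20 in most samples of WT+LPS only, which largely set their direction. Low genes also have little room to fall above the level of 20. Among the 159 genes above 20 in most samples of both groups the split was 71 higher and 64 lower, and the median size was 1.05.

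In the lowest of these groups the largest falls were those of Map2k6 and Tbxa2r, described above, and of Cd40lg, a ligand on activated T cells, from 65.04 (44.3 to 90.9) to 16.5 (12.2 to 29.9). At the high end Ccl5, a chemokine for T cells and monocytes, rose by 4.76 ± 0.13 from a resting signal of 1670.4 (1047 to 1728), and complement factor B (Cfb) went from 2628 (1689 to 6338) to 23228 (16383 to 32642). Hif1a, the oxygen-sensitive subunit of a transcription factor, rose by 2.71 ± 0.11 from 3232 (2799.8 to 3664). Tgfb2, a ligand of Tgfbr1, had the largest fall of all genes tested, from 2360.2 (1303 to 2975) to 8.195 (6.44 to 20.7), at least 110.2-fold. Of the genes past the test, 69 were higher and 43 lower by at least 2-fold, with the bound in place of the fold for genes mostly under 20 in a group. Among those above 20 in most samples of both groups the numbers were 44 and 38. At 10-fold the numbers were 35 and 4, or 20 and 3 among genes above 20 in both groups, and at 100-fold 13 and 1 (Tgfb2), or 5 and 0.

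The 5 genes of highest mean log2 signal in resting cells were all lower after LPS, as was C1qa (change -1.85 ± 0.16), which stood just above Tyrobp by mean signal. Retnla, a marker of alternatively activated macrophages, went from 54333 (39683 to 75425) to 20342 (14892 to 40048), a change of -1.28 ± 0.22, and it overlapped in the lowest resting sample. C1qb, C4a and Tyrobp changed by -1.13 ± 0.15, -1.25 ± 0.23 and -1.60 ± 0.14, and Alox15 by -3.05 ± 0.21. The 10 genes of highest signal in each group held 61.7% ± 1.62 of the target signal in resting cells and 39.6% ± 1.17 after LPS (SD). The median SD of log2 signal between mice was 0.22 in resting and 0.21 in LPS samples over 129 genes with a mean above 100 in both.

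**Figure D5:**
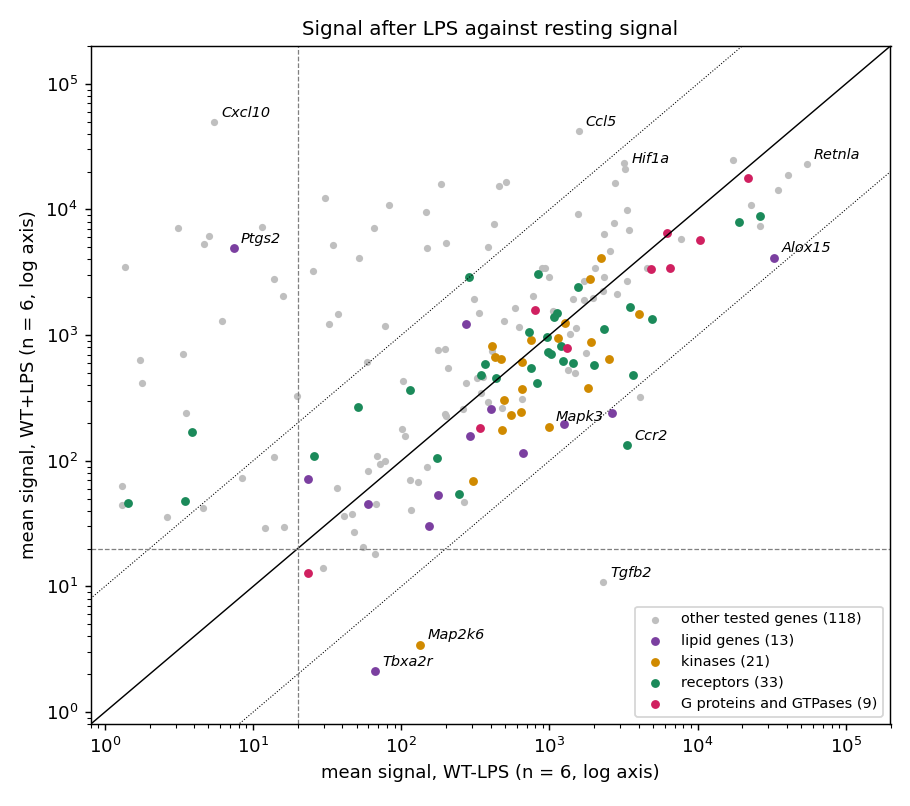
Mean signal after LPS against mean resting signal for the 194 tested genes (log axes), with lines for no change and for a 10-fold change each way, and lipid genes, kinases, receptors and G proteins in colour. Most genes far above the upper line start at a low resting signal, and Tgfb2 and Ccr2 lie farthest below the lower line among genes of high resting signal.

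The 18 samples of LPS-treated mice with exchanged cyclooxygenase genes give further values after LPS for genes other than Ptgs1 and Ptgs2. They have no saline controls and were not tested here. Map2k6 signal in them was 1 to 10.3, Tbxa2r 1 to 3.96 and Tgfb2 4.13 to 73.01, against resting wild-type minima of 104, 40.1 and 1303. Ccr2 was 69.9 to 273, Mapk3 132 to 411, Mapk14 265 to 717 and Cysltr1 26.2 to 183, all under the lowest resting wild-type sample. Cxcr4, at 372 to 2431, and Ccr7, at 996 to 6908, spread over the ranges of both wild-type groups.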

How the data were processed

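RNA of wild-type peritoneal macrophages was compared between 6 WT+LPS and 6 WT-LPS samples. Groups and replicate numbers came from the sample titles, and runs and lanes from the column names. Per the labels' protocols, RNA had an integrity number of at least 7.0 and was adjusted to 20 ng/µl. Each deposited value is the authors' signal of a gene in a sample, and the sources used here do not name the software behind it. The deposited signal had a floor of 1, lay on whole steps in each lane (tolerance 0.1 of a step), and had a geometric mean of Cltc and Gapdh of 8147.9 in all 12 samples. A step, worth 0.715 to 1.58 signal units, gave the recovered counts, 298381 to 717120 per sample, which served only for depth and for comparing samples. No pair of samples within WT+LPS or within WT-LPS was a duplicate (lowest chi-square per gene 24.9, median 74.6 over 30 pairs). Pairs within the exchange groups were not part of this check. Of 96 negative control values 1 was above 20. The labels describe separate mice per group.

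Because the values are not counts, limma 3.58.1 in R 4.3.3 was used on log2(signal + 1), with lmFit, eBayes and Benjamini-Hochberg adjustment at 0.05 over the 194 genes tested. All tests were two-sided. Folds on this scale understate changes of low genes. For a group mostly under 20, its values were raised to 20 where lower and the ratio of geometric means is given as a bound. On simulated data of this comparison (194 genes, 20 simulations) 68.7%, 87.2% and 99.2% of genes changed 1.5-, 2- and 4-fold passed, and 2.6% of the calls were wrong. Fewer genes were changed in the simulations than the 87.6% called here, and no scaling error was added. The 2.6% therefore does not measure the error of the calls in these data.

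The members, gene lists and rules were chosen with earlier results of these data known. All members of the lipid, chemokine receptor, cytokine receptor, G protein and kinase lists could be named. Other lists gave up to 3 higher and 3 lower genes of largest change, and further names were the extremes of each of 3 equal groups by resting signal, the 5 highest resting genes by mean log2 signal and the 3 genes of largest spread in each group (mean signal above 100 there). Some results are not reported here. Ratio pairs, Ly96 and the values in exchange mice were chosen after values were seen.

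Alternatives were the scaling (equal total signal, 6 reference genes, the 4 other than Gapdh and Pgk1, equal medians of tested genes, and equal positive control signal, the last added after the data were seen), the filter, a pseudocount of 10, all 5 groups in the fit, run as a block, each run alone, a prior variance that follows the mean, and each sample left out. All 248 panel names were matched to the GRCm38.p6 RefSeq gene table, 6 of them under another name, and 186 had a promoter in the RefSeq promoter table. Tables and plots were made in Python 3.11.15 (pandas 2.3.3, numpy 2.4.6, matplotlib 3.10.9).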

Additional observations from a re-analysis of the deposited data

Results flagged for a closer look

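In 9 of 176 combinations of a named gene and a group, 1 sample stood apart by Dixon's criterion and the group held a value above 20. Chance marks about 1 in 20 groups. The 176 include groups with all values at or under 20, and marked samples in such groups were left out of the 9. The 9 of 176 therefore cannot be set against 1 in 20.

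Of these values 4 belong to WT-LPS sample 40. Its Ptgs2 signal of 30.7 was the only resting value above 20 (others 1 to 6.91), and its Il1r1 signal was 53.5 (others 13.7 to 27.96). Its Map2k1 signal of 1951 lay below the others (2239 to 2327), as did its Mknk1 signal of 486 (others 651 to 689.9). In WT+LPS sample 51, Il1rap was at 628 (others 422 to 482) and Rapgef2 at 2126 (others 1325 to 1618). WT-LPS sample 39 had a Ptk2 signal of 538 (others 428 to 467). WT-LPS sample 37 had a Ccl5 signal of 1047 (others 1635 to 1728). WT-LPS sample 38 had an Iigp1 signal of 1685 (others 165 to 552), an interferon-induced GTPase. None of these 9 genes lost its call in a fit that left out 1 sample.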

How the results depend on the processing

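No paired analysis was possible because the 2 groups share no replicate numbers. The number of changed genes, 170 as reported, was 158 to 174 under the 5 other scalings, 183 of 248 with no filter, 132 of 151 with a signal above 20 in all 12 samples, 172 with a pseudocount of 10, 163 with all 5 groups in the fit, 167 with run as a block, 172 with a prior variance that follows the mean, and 122, 126 and 162 in runs 1, 2 and 3 alone. In the fit with all 5 groups, samples 55 and 56 of the exchange group Reversa were averaged and entered as 1 sample. Leaving out 1 sample gave 165 to 171 changed, 95 to 101 higher and 69 to 74 lower genes. The number of lower genes was 46 in run 1 alone and 46 in run 2 alone, against 71, with 4 samples in each fit.

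The scaling set the split of higher and lower genes. It was 99 to 71 as deposited, 79 to 85 under equal total signal, 95 to 74 under 6 reference genes, 115 to 49 under 4 reference genes, 69 to 105 under equal medians and 103 to 55 under equal positive control signal. Values of named genes that turned sign, with a call on either side, numbered 15. Under equal medians the log2 change was -0.28 for Ccr7, -0.44 for Il1rap, -0.84 for Gnb1, -0.033 for Map2k1, -0.62 for Map2k4, -0.27 for Mapk8, -0.33 for Mapkapk2, -0.46 for Ptk2 and -0.42 for Cfl1. Under equal total signal it was -0.30 for Gnb1 and -0.086 for Map2k4. Under 4 reference genes it was 0.22 for Cdc42, 0.49 for Map3k7, 0.081 for Shc1 and 0.009 for Tlr1. These follow from the shift of all genes that each scaling makes. Precision is limited by 6 mice per group, and by depth near the signal of 20.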

Other observations

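Transcription factors of the stress, MEF2 and MAF families moved in both directions. Of 27 tested 12 were higher, 8 lower and 7 did not pass, and 6 higher and 5 lower were stable. The shares over all genes tested were 51.0% higher and 36.6% lower, with 35.6% and 25.3% stable. Maff, a small MAF protein that lacks a transactivation domain, rose from 19.5 (9.56 to 29.4) to 328 (228 to 406), at least 14.3-fold. Mef2b rose from 2.02 (1.18 to 11.9) to 41 (31.01 to 62.8), at least 2.03-fold, while its relative Mef2c, a factor of myeloid and lymphoid development, fell from 1403 (1108 to 1938) to 462 (385 to 697), a change of -1.57 ± 0.19. Nfatc3, a factor activated by calcineurin, and Hmgb1, a chromatin protein that acts as an alarmin when released, changed by -1.32 ± 0.14 and -1.30 ± 0.12.

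In the TGF-beta pathway all 4 genes tested were lower, against 36.6% of all genes tested. In 2 of them (Tgfb2 and Tgfbr1) the call held under all 5 other scalings, against 25.3% over all genes tested. Tgfb3, a further ligand on the panel, missed the filter and was not tested. Its signal was higher after LPS, 6.01 (1.18 to 12.95) in resting cells and 36.8 (17.5 to 62.8) after LPS, with no overlap. Smad7, the inhibitor of the pathway, went from 127 (74.9 to 194) to 67.4 (51.5 to 85.1), a change of -0.86 ± 0.22, with overlapping groups. Among the adaptors of death receptors and survival genes 5 of 6 were higher, 3 of them under all 5 scalings. Over all genes tested 51.0% were higher, and 35.6% were higher under all 5 scalings. Tnfaip3, which shuts off NF-kB signalling, rose by 5.08 ± 0.13 on the log2 scale, Daxx, a chaperone of histone H3 that also binds the death receptor Fas, by 2.63 ± 0.14, and Bcl2l1, a survival protein of mitochondria, by 2.10 ± 0.09. Tradd, an adaptor of the TNF receptor, had a change of -0.73 ± 0.17 that 3 of 5 scalings kept.

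Among genes with a mean signal above 100 in the group concerned, spread between mice was largest in a few. Among resting samples the SD of log2 signal was largest for Iigp1 (1.28), Cd163 (0.86) and Arg1 (0.76), and among LPS samples for Il10 (0.75), Arg1 (0.69) and Cxcl1 (0.63). Arg1, which turns arginine into ornithine, was at 1477 (767 to 2915) in resting cells and 2677 (1166 to 4525) after LPS and did not pass (adjusted p = 0.093), though it passed as higher under 2 of the 5 other scalings and without WT+LPS sample 52 or WT-LPS sample 37. Cd163, a haemoglobin scavenger receptor, was at 182 (48.8 to 274) and 110.0 (61.7 to 152) and did not pass (adjusted p = 0.12), though it passed as lower under 2 of the 5 other scalings, in runs 2 and 3 alone and without WT-LPS sample 38.

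The reference genes other than the pair held equal are given on the deposited scale. From resting to LPS samples the mean signal of Gusb was 3040 and 1016, that of Tubb5 2888 and 1337, that of Hprt 435 and 932 and that of Pgk1 356 and 1592. Within the pair held equal Cltc and Gapdh had log2 changes of -0.41 and 0.41 on the deposited scale, which mirror each other because their geometric mean is fixed.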
